A study of Rattus norvegicus with 18 samples.

Results

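The neural retina of Fischer344 rats was compared between 24 months and 4 months of age by bulk RNA-seq of poly-A RNA. This comparison took 6 of the 18 libraries of the series, 3 from young rats (4 months) and 3 from aged rats (24 months), and it covered every gene of the retina count table. The age of the young rats is that of the labels, and the study's text gives a lower one. All rats of both groups were wild type, untreated and, by the study's methods, female, and the aged rats had received plain drinking water as the untreated arm of a drug study. Of the 32285 genes in the table, 14588 had enough counts to be tested, and 89 gene lists, 26 for cell types and 63 for pathways and gene families, were used to describe them. F344 is an albino strain, and loss of photoreceptors with age is known in albino rats. The labels do not say whether a library came from 1 eye, 1 rat or several, so the p-values measure the spread between these libraries.

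The retina is a layered neural tissue. Rods and cones turn light into a change of membrane potential and pass it at ribbon synapses to bipolar and horizontal cells, and amacrine and ganglion cells carry the signal onward to the optic nerve. Müller glia span all layers, clear transmitters, buffer potassium and water and supply photoreceptors with fuel, while microglia survey the tissue and remove debris. In injury, Müller glia and astrocytes raise intermediate filament and cytokine-response genes, a state called reactive gliosis.

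The 6 libraries held between 12285503 and 15644317 expected counts, and all values below are CPM, which are counts divided by a library total after TMM scaling and so are rates and not numbers of reads. The libraries carried the markers of neural retina, with the rod genes summing to 70744 to 76555 CPM in young and 44317 to 49327 CPM in aged libraries. Other tissues were present in unequal amounts. The 25 lens genes found summed to 3512, 7461 and 502.6 CPM in young libraries 1, 2 and 3, and lay between 209.2 and 255.0 CPM in every aged library. The erythroid genes reached 367.6 CPM in aged library 2, against 77.5 and 84.9 CPM in the remaining aged libraries, and lay between 23.8 and 42.4 CPM in all young libraries. The pigment epithelium list overlapped between the groups, at 159.9 to 427.8 CPM in young and 354.1 to 533.9 CPM in aged libraries. Young libraries 1 and 2 thus stood apart by lens genes and aged library 2 by blood genes. Each library was left out in turn, and young libraries 1 and 2 together. Counts of 4 or more in the lists described here that move by over 1.5 times without 1 library are given with that library. Of the 71 list counts of 1 to 3 genes, 48 moved by that much without some library, so they say little of a list.

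**Figure D1:**
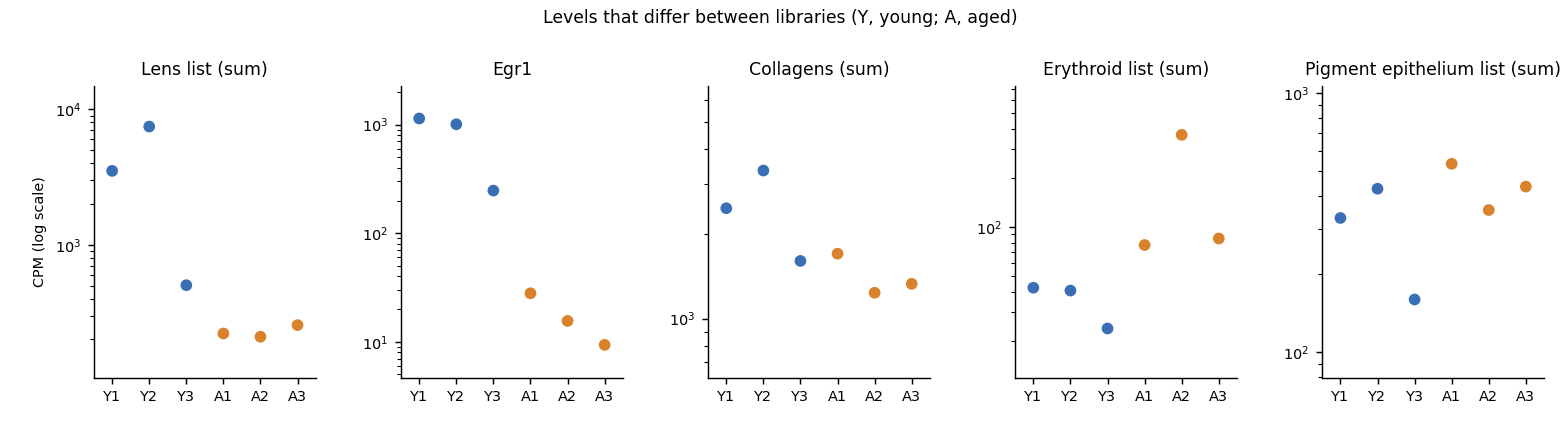
Level in each library, in CPM on a log axis, of the summed lens, collagen, erythroid and pigment epithelium lists and of the gene Egr1, with young libraries (Y1 to Y3) in blue and aged libraries (A1 to A3) in orange. Lens genes, collagens and Egr1 were higher in young libraries 1 and 2 than in young library 3, and erythroid genes were highest in aged library 2.

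In all, 1063 genes rose and 1059 fell in the aged retina at an adjusted p under 0.05 (edgeR quasi-likelihood test, Benjamini-Hochberg adjustment over all 14588 genes), which are 7.29% and 7.26% of the genes tested. The counts were nearly even, but the sizes were not. Among the genes that rose, 459 did so more than 2-fold and 145 more than 4-fold, whereas 56 of those that fell changed more than 2-fold and 11 more than 4-fold. The median change was 0.86 on the log2 scale for genes that rose and -0.39 for those that fell, against 0.002 over all genes tested. The genes that rose were also the scarcer ones, with a median level of 3.46 log2 CPM, against 6.42 for the genes that fell and 4.51 for all. Together the falling genes made up 251106 to 259800 CPM of each young library and 171054 to 188255 CPM of each aged one. Every called gene had groups that did not overlap, as did 35.5% of all genes tested. By a rule of a fold over 1.5 with an unadjusted P under 0.05 in the same edgeR fit, 6.45% of genes tested were higher, 2.39% lower and 8.84% either. Bulk libraries cannot tell fewer cells of a type from less RNA per cell, and this holds for every result below. Without young libraries 1 and 2 together, 432 genes were higher and 237 lower.

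**Figure D2:**
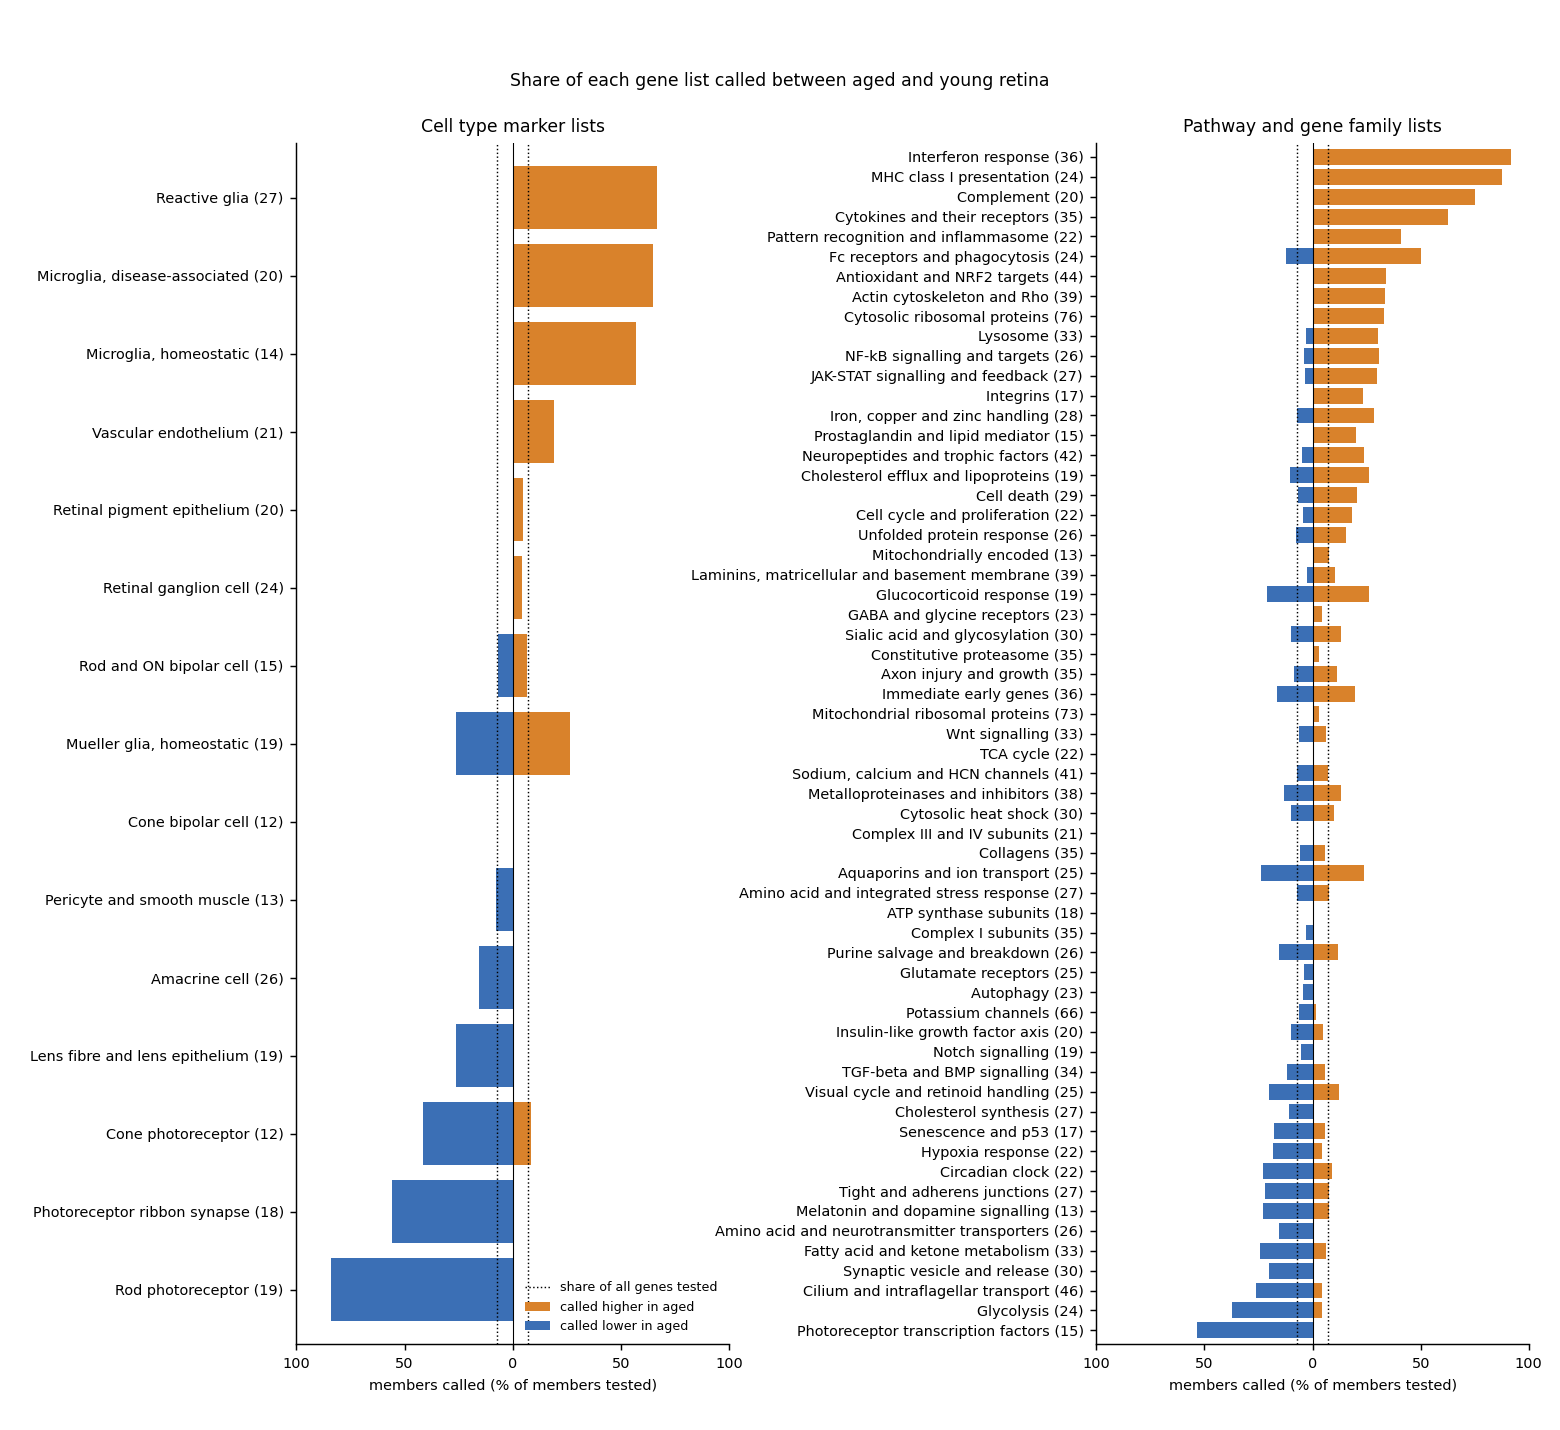
Share of the tested members of each list that was called higher (orange, right) or lower (blue, left) in aged retina, for lists with at least 12 members tested, whose number is given in brackets; the dotted lines mark 7.29% and 7.26%, the shares over all genes tested. Glial, immune and cytokine lists lie at the top, photoreceptor, glycolysis and cilium lists at the bottom, and mitochondrial and proteasome lists stay within the dotted lines or near them.

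Among genes with a fall in the aged retina, Igf2bp2, which binds and stabilises messenger RNAs including that of insulin-like growth factor 2, had the smallest adjusted p of any gene named here. It stood at 56.4, 54.8 and 60.0 CPM in young libraries and at 12.4, 12.3 and 13.1 CPM in aged libraries. All aged values were far below all young ones, a 4.52-fold fall (log2 change -2.18 ± 0.08 SE, adjusted p = 1.4e-06). Ppef1, a calcium-regulated protein phosphatase of sensory neurons, was at 4.56, 4.96 and 6.04 CPM at 4 months and 1.25, 1.46 and 1.52 CPM at 24 months. Fabp12, a fatty acid-binding protein, went from 26.3 to 28.7 CPM down to 9.51 to 11.4 CPM (log2 change -1.34 ± 0.10). Slc4a7, a sodium-bicarbonate cotransporter of photoreceptors, was at 221.7, 278.0 and 285.6 CPM in young retina and 121.1, 78.2 and 97.5 CPM in the aged retina. Aqp1, a water channel, fell with a log2 change of -1.32 ± 0.11, and Cerk, which phosphorylates ceramide, with -1.20 ± 0.14. Other genes of the 15 largest falls that kept the call with any 1 library left out were Rtkn2 (-1.74), the Wnt inhibitor gene Wif1 (-1.37) and Bmp3 (-1.24).

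Egr1, an immediate early transcription factor, had the largest fall by size among the 15 largest falls, but its young levels were uneven. It was at 1140, 1009 and 247 CPM in young libraries 1, 2 and 3 and at 28.0, 15.6 and 9.38 CPM in the aged libraries (log2 change -5.51 ± 0.90, adjusted p = 0.029). The groups did not overlap, yet young library 3 was far below the other young libraries, as it was for the lens genes. The call was lost without young library 1, young library 2 or any aged library (adjusted p up to 0.12). Rbm24 and Inhba, also among the 15 largest falls, showed the same imbalance, with 5.88, 7.82 and 2.41 CPM for Rbm24 and 5.33, 6.77 and 2.55 CPM for Inhba in young libraries 1, 2 and 3. Rbm24 lost its call without young library 1 or any aged library (adjusted p up to 0.092), and Inhba without young library 1 or 2 or aged library 2 or 3 (adjusted p up to 0.099). Ccr9 (-1.23) lost its call without young library 2 or aged library 3 (adjusted p up to 0.073), and Car14 without young library 1 or 2, as given with the Müller glia.

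Of the 302 genes called among those the naming rule selects, 190 kept the call whichever 1 library was left out, and all 302 kept their direction. Where a list is given below with 0 members called in a direction, DESeq2 called 0 there as well unless stated, and at most 3 members of any such list had an unadjusted p under 0.05 in that direction by edgeR, apart from the 5 ATP synthase genes given with them and the amino acid transporter list, in which 4 were higher at that level and DESeq2 called 1 higher. The genes named below as risen or fallen belong to the 190 unless an exception is given.

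**Figure D3:**
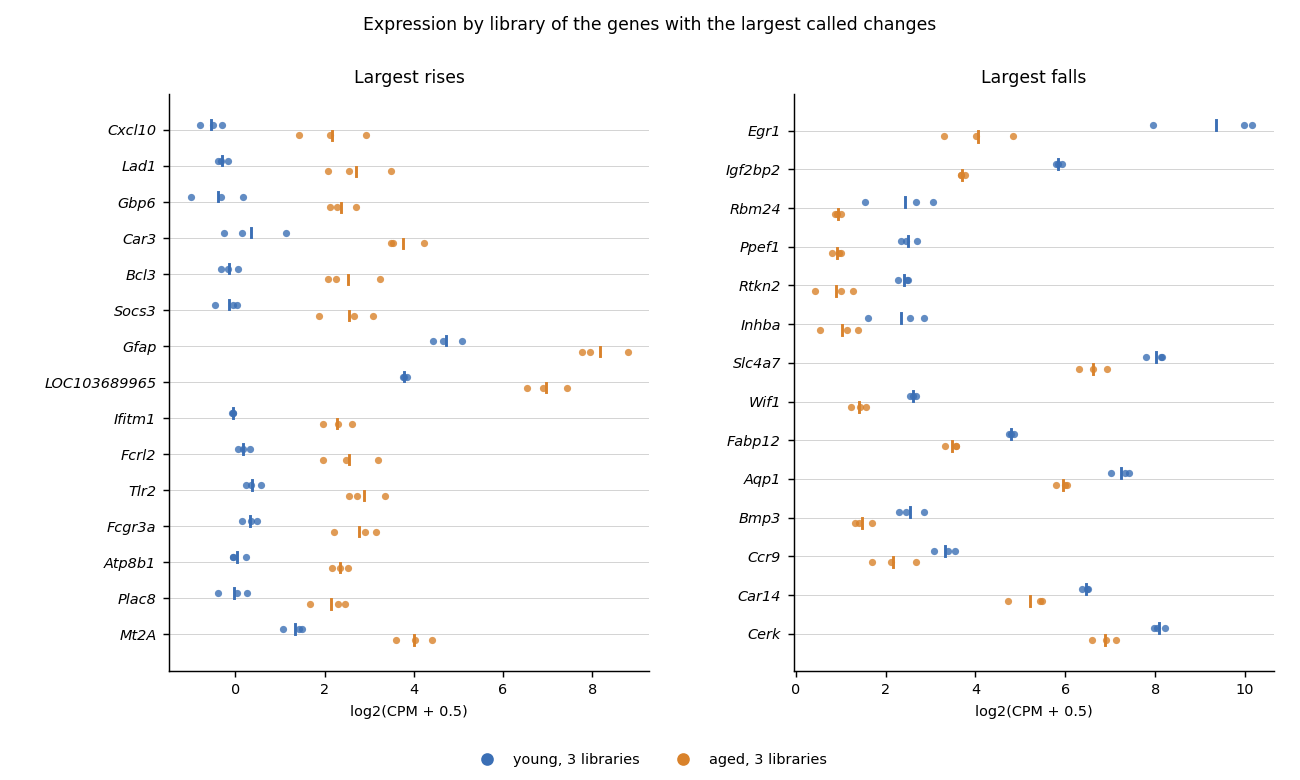
Level of the 15 genes with the largest rises (left) and of all but 1 of the 15 with the largest falls (right), as log2(CPM + 0.5) on the horizontal axis, for each young (blue) and aged (orange) library, with a bar at the mean of 3 libraries. No gene has overlapping groups, because the selection required this, and the young points are spread widely for Egr1, Rbm24 and Inhba but lie close together for Igf2bp2.

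The largest rises among genes outside the interferon, complement and antigen presentation lists included Cxcl10, Gbp6 and Ifitm1, which are known as interferon-induced genes although the interferon list does not hold them. Lad1, a protein of basement membrane anchoring filaments, was at 0.387, 0.301 and 0.268 CPM at 4 months and 3.74, 10.8 and 5.31 CPM at 24 months (log2 change 4.36 ± 0.52, adjusted p = 0.0013). Atp8b1, which moves phospholipids between the leaflets of the plasma membrane, was at 0.464 to 0.677 CPM in young retina and 4.00 to 5.28 CPM in the aged retina (3.09 ± 0.28). Plac8 was at 0.268 to 0.696 and 2.69 to 4.96 CPM. The chemokine gene Cxcl10 rose the most of these, with a log2 change of 4.44 ± 0.60, from levels of 0.0752 to 0.309 CPM that rest on few reads. Car3, a carbonic anhydrase, rose by 3.95 ± 0.50, a value that went to 4.83 without young library 1, where it was at 1.70 CPM against 0.602 and 0.335 CPM in the other young libraries. Gbp6 rose by 3.97, and by 4.96 without young library 1 and 3.34 without young library 3, in which it had no read. Fcrl2 (3.16), Ifitm1 (3.24) and the locus LOC103689965 (3.26) rose in all 3 aged libraries as well.

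Of 27 reactive glia genes tested, 18 rose and 0 fell (66.7%, against 7.29% of all genes), with a median log2 change of 1.97. Gfap, the intermediate filament of astrocytes and of reactive Müller glia, was at 33.4, 21.1 and 24.8 CPM at 4 months and 246.7, 442.8 and 218.5 CPM at 24 months, an 11.5-fold rise (adjusted p = 0.0087). Lif, a cytokine that Müller glia release after photoreceptor injury, was at 1.01, 1.05 and 0.402 CPM in young retina and 3.12, 2.92 and 2.48 CPM in the aged retina (1.80 ± 0.35). Osmr, the oncostatin M receptor, was at 0.928, 1.35 and 1.61 CPM at 4 months and 6.47, 13.4 and 6.55 CPM at 24 months (2.75 ± 0.37). Both genes were higher in each aged library than in each young one. Stat3, a transcription factor that Lif and oncostatin M signalling activates, rose from 85.2 to 87.6 CPM to 157.2 to 220.1 CPM (1.08 ± 0.12), and Socs3, the feedback inhibitor of that path, from 0.232 to 0.526 CPM to 3.17 to 7.95 CPM (3.75 ± 0.43).

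Other reactive genes with known roles in stressed retina rose as well. Edn2, an endothelin made by stressed photoreceptors, had a log2 change of 2.76 ± 0.45, and Fgf2, a growth factor that protects photoreceptors, of 2.01 ± 0.23. Bcl3, a nuclear partner of NF-kB, was at 0.301 to 0.536 CPM in young retina and 3.72 to 9.03 CPM in the aged retina (3.76 ± 0.45). Cntf, a gp130 ligand, had a log2 change of 0.73 ± 0.20 (adjusted p = 0.038), and its call was lost without young library 1 or 3 or aged library 2 or 3 (adjusted p up to 0.14). Timp1 was at 2.94, 3.91 and 1.01 CPM at 4 months and 11.5, 21.1 and 10.1 CPM at 24 months, and lost its call without young library 1 or 2 or without any aged library (adjusted p up to 0.14). Lcn2 lost its call without any young library or without aged library 1 or 2 (adjusted p up to 0.11). Without young libraries 1 and 2 together, 7 reactive glia genes were called.

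**Figure D4:**
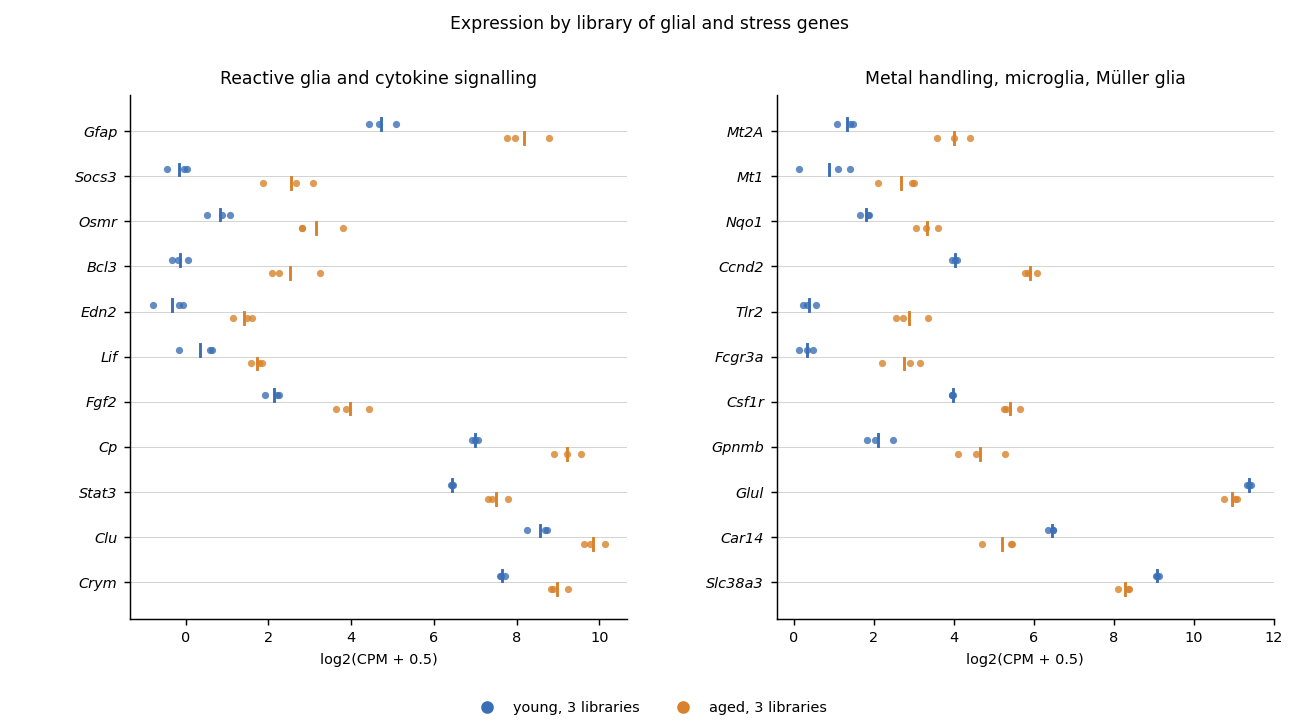
Level of genes of gliosis and cytokine signalling (left) and of metal handling, microglia and Müller glia (right), as log2(CPM + 0.5), in each young (blue) and aged (orange) library, with a bar at the mean of 3 libraries. The left genes are all higher in aged libraries, most of all Gfap, Socs3, Osmr and Bcl3, while Glul, Car14 and Slc38a3 at the bottom right are lower.

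Cytokine genes and receptors showed the same direction, with 22 of 35 tested members higher, 0 lower and a median log2 change of 0.73. The lists share members, so their counts are not separate support. The largest change in the cytokine list, 2.75, was that of Osmr, and Stat3 and Socs3 of the JAK-STAT list are reactive glia genes too. Csf2rb, the shared receptor subunit of several myeloid cytokines, was at 0.451 to 0.536 CPM in young retina and 2.42 to 4.58 CPM in the aged retina (2.72 ± 0.36). Il18, an inflammasome product, rose by 1.74 and the interleukin 1 receptor gene Il1r1 by 1.32. Of 27 members of the JAK-STAT list, 8 rose and 1 fell. Besides Stat3 and Socs3 these included Jak3 (1.92 ± 0.22), while Stat5b fell by 0.41 on the log2 scale. Il6, Tnf and Il10 were not analysed here, and Il1b was below the level needed for a test.

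The Müller glia list moved in both directions. Of 19 members tested, 5 rose and 5 fell, with a median log2 change of 0.08, and the summed level overlapped between groups at 8018 to 8563 CPM at 4 months and 8317 to 8624 CPM at 24 months. Crym, a thyroid hormone-binding protein, was at 209.5, 191.6 and 197.7 CPM in young retina and 453.9, 602.8 and 471.4 CPM in the aged retina (1.35 ± 0.11, adjusted p = 0.00019). Clu, the secreted chaperone clusterin, was at 428.0, 409.8 and 303.8 CPM at 4 months and 869.4, 1119 and 786.8 CPM at 24 months (1.28 ± 0.19). Glul, which turns glutamate into glutamine, was at 2782, 2595 and 2663 CPM in young retina and 2153, 1733 and 2103 CPM in the aged retina (-0.42 ± 0.08, adjusted p = 0.0090). Car14, a carbonic anhydrase on the Müller cell surface, was at 89.1, 89.8 and 82.0 CPM at 4 months and 43.9, 25.8 and 42.9 CPM at 24 months, and Rlbp1, which carries 11-cis retinoids, was at 295.7 to 314.1 and 199.3 to 260.4 CPM. The potassium channel gene Kcnj10 had a log2 change of -0.25 ± 0.10 (adjusted p = 0.15) and the glutamate transporter gene Slc1a3 one of 0.16 ± 0.07 (adjusted p = 0.14). Aqp4, the Müller water channel, rose by 0.33 ± 0.08.

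The smaller of these calls depended on single libraries. Car14 lost its call without young library 1 or 2 (adjusted p up to 0.064), Aqp4 likewise (up to 0.081), and Rlbp1 without any 1 young library (up to 0.11). The number of Müller glia genes that fell went from 5 to 2, 3 and 3 without young library 1, 2 and 3, and the number that rose to 3 without young library 2. Of 8 astrocyte genes tested, 2 rose and 1 fell, with 0 rising without young library 1 or 2 and 2 falling without young library 3. The gene that fell was Gjb6, the gap junction protein connexin 30, at 3.32, 2.71 and 3.69 CPM in young retina and 0.312, 0.254 and 0.690 CPM in the aged retina (-2.93 ± 0.37, adjusted p = 0.00093). S100b, a calcium-binding protein of astrocytes, was at 35.0 to 42.4 and 57.6 to 84.2 CPM (0.82 ± 0.15), a call lost without young library 1 or 2 (adjusted p up to 0.061).

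Microglia genes rose both in the set that marks resting cells and in the set that marks cells near damage. Of 14 homeostatic genes tested, 8 rose (57.1%, median 0.88), and of 20 disease-associated genes, 13 rose (65.0%, median 1.11), with 0 falling in either. Csf1r, the receptor for the survival factor of microglia, was at 15.4, 15.2 and 15.1 CPM at 4 months and 39.4, 50.1 and 37.7 CPM at 24 months (1.48 ± 0.11, adjusted p = 9.2e-05). Tmem119, a marker of resident microglia, was at 2.01 to 2.41 and 4.34 to 6.23 CPM (1.18 ± 0.22), and P2ry12, a purine receptor of resting microglia, at 1.88 to 3.16 and 4.00 to 6.67 CPM (1.02 ± 0.26). Spp1, encoding osteopontin, rose by 2.58 ± 0.34 and Tyrobp, the adaptor of activating receptors, by 2.53 ± 0.41. Gpnmb, a glycoprotein of phagocytes, was at 3.08 to 5.10 CPM in young retina and 16.7 to 38.7 CPM in the aged retina. Trem2, Cst7, Itgax and Clec7a were below the level needed for a test.

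Leaving out young library 2 or 3 reduced the disease-associated count to 7 or 8. Gpnmb lost its call in both cases (adjusted p up to 0.064), and P2ry12 lost its call without young library 1 or 3 or aged library 2 (up to 0.096). Aged library 2, the library with the most erythroid RNA, was the highest of the aged libraries for Csf1r, Gpnmb and Gfap, and without it the counts were 13 disease-associated and 6 homeostatic genes. Of 8 genes of border macrophages and monocytes, 3 rose. Ptprc, the pan-leukocyte antigen, rose by 1.93 ± 0.26, while the other T, B and NK cell markers were nearly all below test level, with only 3 of 21 found tested.

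Of 24 genes of Fc receptors and phagocytosis tested, 12 rose and 3 fell, and the summed level of the list overlapped, at 1577 to 1663 CPM at 4 months and 1563 to 1666 CPM at 24 months. Fcgr3a, a low-affinity receptor for immunoglobulin G, was at 0.773, 0.902 and 0.604 CPM at 4 months and 7.01, 8.45 and 4.14 CPM at 24 months (3.10 ± 0.33), and Fcgr2b, the inhibitory member, rose by 2.24 ± 0.30. The falls included Scarb1, a receptor for lipoproteins and dying cells (-0.48 ± 0.06). Of 22 pattern recognition genes tested, 9 rose and 0 fell. Tlr2 was at 0.671 to 0.977 CPM in young retina and 5.38 to 9.79 CPM in the aged retina (3.13 ± 0.30), and Tlr7, Tlr4 and Tlr3 rose by 2.40, 1.6 and 1.38. Nlrp3 had a log2 change of 1.46 ± 0.44 (adjusted p = 0.052). Of 33 lysosome genes, 10 rose and 1 fell, among them the cathepsin genes Ctsz (2.18 ± 0.18) and Ctss (2.03 ± 0.23), and the lysosome count was 6 without young library 3. The number of phagocytosis genes that rose was 8 without young library 2 or 3, and the number that fell was 1 without young library 1.

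The 250 bases before the start of each gene were searched for motifs chosen after the expression values had been seen. In the interferon and MHC class I lists, 33 of 36 and 21 of 24 genes tested rose. These are among the genes that rose, so motif shares in risen genes are not independent of the expression values. RefSeq promoters on the GRCr8 build were matched by symbol for 10403 of the 14588 tested genes. The letters of the interferon-stimulated response element (GAAA, then NN for any bases, then GAAA), searched on both strands, were present in 8.87% of the promoters of genes that rose, 1.71% of those that fell and 2.51% of all tested genes, against 3.29% of all 27457 promoters in the table. The STAT letters TTCCNGGAA stood in 1.80%, 0.487%, 1% and 1.04% of the same sets. The letters TAATCC, bound by the photoreceptor factor CRX, were in 4.63% of risen, 5.6% of fallen and 4.73% of tested genes, so the 3 shares lay close together. TGCACNC, the core of the metal response element, was in 11.6% of risen, 11% of fallen and 11.1% of tested genes, shares that also lay close together. Within lists, TAATCC was in 4 of 15 ribbon synapse promoters and 3 of 14 rod promoters, and TGCACNC in 6 of 22 promoters of metal-handling genes (27.3%). The interferon-stimulated response element was in 17 of 27 interferon list promoters, 8 of 20 MHC class I promoters and 2 of 23 reactive glia promoters. The STAT letters were in 4, 0 and 0 promoters of the same 3 lists. The promoter of Gbp2, a member of both the reactive glia and the interferon list and the reactive glia gene with the largest rise (2.01, 1.80 and 1.95 CPM at 4 months, and 20.3, 39.2 and 27.2 CPM at 24 months), is shown with its only match to the interferon-stimulated response element, which lies on the reverse strand, in capitals (GRCr8 chr2:234005477-234005726, plus strand).
Gbp2: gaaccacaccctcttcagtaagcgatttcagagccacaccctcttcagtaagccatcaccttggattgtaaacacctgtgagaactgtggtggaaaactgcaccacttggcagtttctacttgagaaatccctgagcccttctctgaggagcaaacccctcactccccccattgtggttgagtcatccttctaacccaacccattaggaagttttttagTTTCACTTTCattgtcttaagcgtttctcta

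Photoreceptor change was not limited to the phototransduction genes. Of 15 transcription factors of photoreceptors tested, 8 fell and 0 rose (53.3%, against 7.26% of all genes), with a median log2 change of -0.47, and the count was also 8 with any 1 library left out. Nrl, which sets rod fate, was at 336.5, 304.3 and 323.5 CPM at 4 months and 155.5, 178.9 and 208.9 CPM at 24 months (-0.83 ± 0.10, adjusted p = 0.0012). Crx, which drives most photoreceptor genes, was at 321.0, 302.7 and 290.1 CPM in young retina and 177.8, 170.3 and 221.7 CPM in the aged retina (-0.68 ± 0.10). Prdm1, which secures photoreceptor over bipolar fate in development, fell by 0.84 on the log2 scale. The rod factor gene Nr2e3 was at 163.2 to 169.1 CPM at 4 months and at 149.1, 100.5 and 155.6 CPM at 24 months (-0.30 ± 0.16, adjusted p = 0.29), so its groups did not overlap but its change was not called. Without young libraries 1 and 2 together, 4 of these genes were called.

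The promoters of a pair of genes that fell and hold TAATCC are shown, since CRX is known to bind such letters and to act on its own gene. They are Rbp3 (chr16:9273537-9273786, plus strand, 1 match) and Crx (chr1:85681853-85682102, minus strand, 2 matches), both from GRCr8, with the matches on either strand in capitals. No match overlaps another of the searched motifs.
Rbp3: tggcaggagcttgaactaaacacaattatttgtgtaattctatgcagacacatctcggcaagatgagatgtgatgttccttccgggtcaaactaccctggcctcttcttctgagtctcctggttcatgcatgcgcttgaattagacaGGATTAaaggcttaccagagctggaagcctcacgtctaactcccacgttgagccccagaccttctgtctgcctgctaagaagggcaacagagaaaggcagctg
Crx: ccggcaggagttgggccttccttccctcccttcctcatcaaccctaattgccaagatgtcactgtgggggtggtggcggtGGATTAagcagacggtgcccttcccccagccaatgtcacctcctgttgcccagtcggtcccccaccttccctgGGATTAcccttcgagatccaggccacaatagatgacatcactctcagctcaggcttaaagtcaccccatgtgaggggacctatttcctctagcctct

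At the first synapse, 10 of 18 tested ribbon synapse genes fell and 0 rose, and all 18 had a change below 0 (median -0.36). Cplx4, the complexin of photoreceptor ribbon synapses, was at 514.1, 500.5 and 553.6 CPM in young retina and 299.6, 245.4 and 326.3 CPM in the aged retina (-0.85 ± 0.10). Slc17a7, which loads vesicles with glutamate, fell by 0.50 on the log2 scale. Of 46 genes of the cilium, the stalk that joins the inner and outer segments, 12 fell and 2 rose. Rp1l1, a protein of the axoneme, fell by 0.59, and Ift57, an intraflagellar transport gene, rose by 0.53 ± 0.09. Leaving out young library 2 gave 7 falls and 3 rises, and leaving out young library 3 gave 6 falls, with 1 rise there and without young library 1 or any aged library.

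Cone genes split. Of 12 tested, 5 fell and 1 rose, and the summed level overlapped at 1039 to 1082 CPM in young retina and 989.6 to 1049 CPM in the aged retina. The opsin genes fell, Opn1sw from 30.8 to 36.7 CPM to 21.0 to 23.3 CPM (-0.59 ± 0.09) and Opn1mw from 39.4 to 45.1 CPM to 26.3 to 32.7 CPM (-0.51 ± 0.10). Gnb3, the cone transducin beta subunit, which ON bipolar cells also use, was at 119.6, 121.0 and 127.1 CPM at 4 months and 223.9, 274.4 and 203.3 CPM at 24 months (0.93 ± 0.10, adjusted p = 0.00079). Cnga3, the cone channel subunit, was at 3.40 to 3.99 and 1.91 to 2.104 CPM, a call lost without young library 2 or aged library 3 (adjusted p up to 0.059). Without young library 2, 3 cone genes fell. In the visual cycle, 5 of 25 genes fell and 3 rose. Rbp3, which carries retinoids between photoreceptors and neighbouring cells, fell most, from 2142 to 2303 CPM to 1121 to 1322 CPM (-0.90 ± 0.07), followed by Rdh12 (-0.53) and Abca4 (-0.39), an enzyme and a transporter that clear retinal in photoreceptors. The number that fell was 3 without young library 1 or 3.

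**Figure D5:**
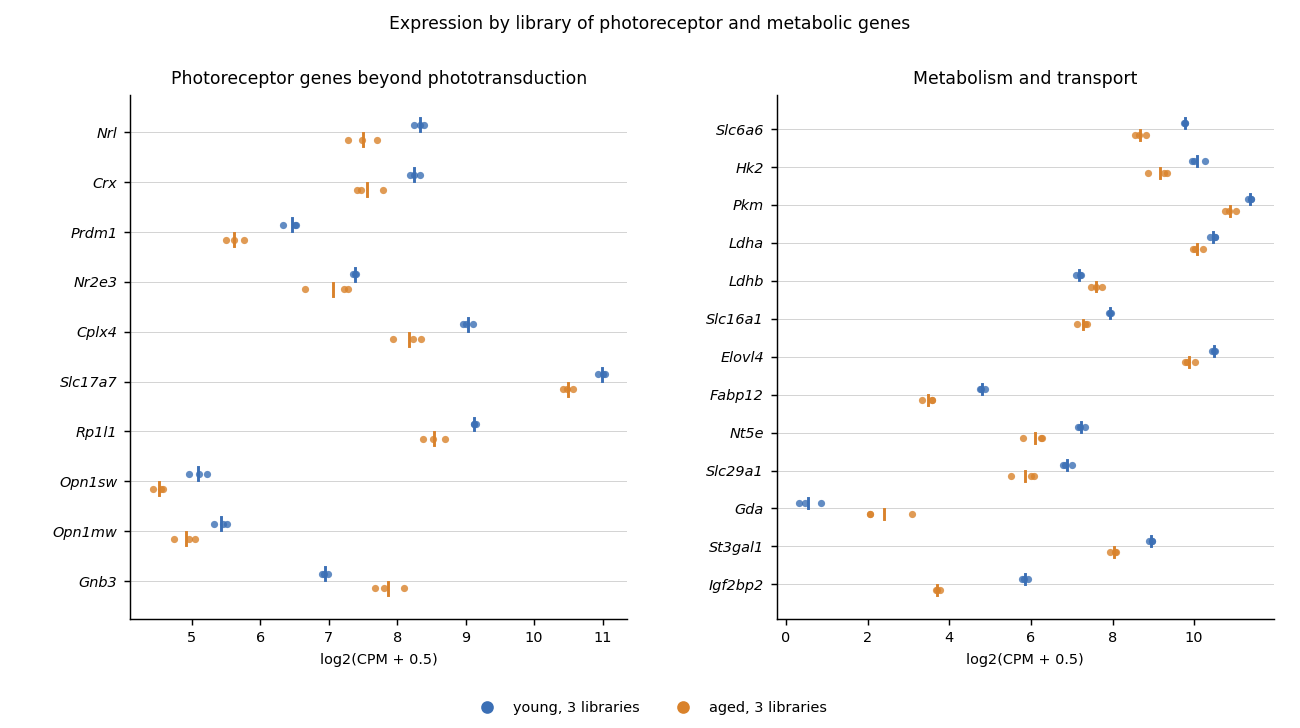
Level of photoreceptor genes other than those of phototransduction together with the cone genes Opn1sw, Opn1mw and Gnb3 (left) and of genes of metabolism and transport (right), as log2(CPM + 0.5), in each young (blue) and aged (orange) library, with a bar at the mean of 3 libraries. Gnb3, Ldhb and Gda are higher in aged libraries, the other genes are lower, and Nr2e3 has 1 aged library far below the others.

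Of 15 rod and ON bipolar genes tested, 1 rose and 1 fell (6.67% each, against 7.29% and 7.26% of all genes), of 12 cone bipolar genes 0 were called by edgeR or DESeq2 (1 higher and 2 lower at an unadjusted p under 0.05), of 7 horizontal cell genes 1 fell, and of 24 ganglion cell genes 1 rose (4.17%). The rod and ON bipolar fall, the horizontal cell fall and the ganglion cell rise were at 0 without any 1 young library or without aged library 3. Without aged library 1 there were 2 falls in each bipolar list and 3 ganglion cell rises, and without young library 3 there was 1 cone bipolar rise. Cabp5, a calcium-binding protein of bipolar cells, was at 41.7 to 46.9 CPM in young retina and 58.9 to 68.6 CPM in the aged retina (0.55 ± 0.08, adjusted p = 0.0019). The bipolar synapse receptor gene Grm6 was at 116.4 to 129.7 CPM at 4 months and 139.2, 85.8 and 112.6 CPM at 24 months, so the groups overlapped. The ganglion cell factor Pou4f2 was at 13.5 to 15.3 and 13.5 to 15.4 CPM (log2 change -0.01 ± 0.10, adjusted p = 0.96). Of 26 amacrine genes 4 fell, but between 0 and 2 did so with any 1 library left out. Th, the enzyme that makes dopamine in a class of amacrine cells, was at 10.5 to 12.99 CPM in young retina and 6.16 to 8.20 CPM in the aged retina (-0.60 ± 0.15), a call lost without young library 1 or 2 or aged library 1 or 3 (adjusted p up to 0.11). Drd4, the dopamine receptor of photoreceptors, was at 48.2, 38.4 and 36.4 CPM at 4 months and 21.2, 15.6 and 19.4 CPM at 24 months (-1.13 ± 0.14, adjusted p = 0.0014).

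Of 25 glutamate receptor genes 1 fell, of 23 receptor genes for GABA and glycine 1 rose, and of 66 potassium channel genes 4 fell and 1 rose. These shares (4.00%, 4.35%, 6.06% and 1.52%) were below those of all genes. Kcnj14, an inward rectifier channel gene, had the largest fall of these (462.4 to 530.1 CPM in young, 208.3 to 276.6 CPM in aged, -0.98 ± 0.11). Of 30 genes of synaptic vesicles, 6 fell and 0 rose, and without young library 2, young library 3 or aged library 3 this number was 3. Syp, the vesicle protein synaptophysin, fell by 0.40 ± 0.06 on the log2 scale, whereas Snap25, of the release machinery, had a log2 change of -0.12 ± 0.07 (adjusted p = 0.28). Scn7a, an atypical sodium channel gene, was at 4.21 to 4.64 CPM in young retina and 8.57 to 15.7 CPM in the aged retina (1.40 ± 0.22).

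Many glycolysis genes fell, and few genes of mitochondrial respiration were called. Photoreceptors are known for high aerobic glycolysis. Of 24 genes tested, 9 fell and 1 rose (median -0.25), and the summed level went from 15675 to 16768 CPM in young to 12457 to 14304 CPM in aged retina. Hk2, the hexokinase of photoreceptors, was at 1014, 982.8 and 1237 CPM at 4 months and 644.4, 468.9 and 615.2 CPM at 24 months (-0.90 ± 0.14, adjusted p = 0.0072). Pkm fell by 0.49 ± 0.08 and Ldha, which makes lactate, by 0.40 ± 0.07, while Ldhb, its partner subunit, rose by 0.43 ± 0.07. Slc16a1, which carries lactate across membranes, was at 240.3 to 250.3 CPM in young retina and 139.4 to 166.9 CPM in the aged retina (-0.66 ± 0.07). By the edgeR test, 0 of 22 genes of the TCA cycle were called, 1 was lower at an unadjusted p under 0.05, and 1 was called higher by DESeq2. Of 35 nuclear genes of complex I, 1 fell, and 0 did without young library 1 or 2 or aged library 1 or 3. Without aged library 1, 4 complex I and 2 ATP synthase genes were higher. Of 18 ATP synthase genes 0 were called by edgeR or DESeq2, with 5 higher and 1 lower at an unadjusted p under 0.05, and of 21 genes of complexes III and IV 0 passed even that. The log2 changes in these lists lay between -0.56 and 0.55. The number of glycolysis genes that fell was 2 without young libraries 1 and 2 together.

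Lipid genes changed in part. Of 33 genes of fatty acid and ketone metabolism, 8 fell (24.2%, against 7.26% of all genes) and 2 rose (6.06%, below the 7.29% of all genes). Elovl4, which makes the very long-chain fatty acids of photoreceptor membranes, was at 1443, 1384 and 1471 CPM at 4 months and 904.2, 879.4 and 1043 CPM at 24 months (-0.60 ± 0.07). Fabp5 fell by 0.59 ± 0.07. The number that fell was 5 without young library 2. Of 27 cholesterol synthesis genes 3 fell (11.1%), and 1 did without young library 1 or 2. Of 19 genes of cholesterol efflux, 5 rose (26.3%) and 2 fell (10.5%). Abca1, which exports cholesterol, was at 24.5 to 30.8 CPM in young retina and 49.3 to 58.4 CPM in the aged retina (0.97 ± 0.10), Nr1h3, a sterol-sensing receptor, rose by 1.14 ± 0.20, and Cyp27a1, which oxidises cholesterol, by 1.24 ± 0.17. The count of efflux genes that rose was 3 without young library 2 or aged library 3.

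Among transporters, the taurine carrier Slc6a6 gave the clearest fall. Taurine is abundant in the retina and its lack is known to harm photoreceptors. Slc6a6 was at 865.7, 872.3 and 882.3 CPM at 4 months and 399.7, 372.8 and 455.0 CPM at 24 months, a 2.14-fold fall (adjusted p = 6.3e-05). Slc38a3, a glutamine carrier of glia, fell from 532.4 to 557.1 CPM to 275.4 to 332.8 CPM (-0.80 ± 0.08). Slc1a7, a glutamate transporter of photoreceptors and bipolar cells, fell by 0.47 on the log2 scale, and 4 of 26 transporter genes fell in all. St3gal1, a sialyltransferase, was at 503.8, 502.9 and 478.9 CPM in young retina and 267.1, 244.1 and 272.0 CPM in the aged retina (-0.92 ± 0.06, adjusted p = 6.3e-05), and the sialyltransferase gene St6gal1 rose by 0.85 ± 0.12.

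Of 26 genes of purine salvage and breakdown, 3 rose (11.5%, against 7.29% of all genes) and 4 fell (15.4%, against 7.26%). Gda, which turns guanine into xanthine, was at 1.31, 0.752 and 0.872 CPM at 4 months and 3.66, 7.95 and 3.66 CPM at 24 months (2.38 ± 0.39, adjusted p = 0.0040). Ada, which turns adenosine into inosine, rose by 2.08 ± 0.42, and Xdh, which makes xanthine and urate, from 7.65 to 8.38 CPM to 12.0 to 16.4 CPM (0.80 ± 0.14). Nt5e, the surface enzyme that makes adenosine, was at 141.4, 148.0 and 159.7 CPM in young retina and 76.2, 55.1 and 76.0 CPM in the aged retina (-1.12 ± 0.13), and Slc29a1, which carries nucleosides, fell by 1.0 ± 0.15. Pnp, the purine nucleoside phosphorylase, was at 20.3 to 21.0 CPM at 4 months and 22.3 to 26.7 CPM at 24 months (0.25 ± 0.09, adjusted p = 0.087). Ada was the scarcest of these, at 0.1504 to 0.268 CPM in young retina and 0.935 to 0.965 CPM in the aged retina.

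Of 28 genes handling iron, copper and zinc, 8 rose and 2 fell. Cp, the copper ferroxidase ceruloplasmin, was at 132.4, 125.9 and 120.8 CPM at 4 months and 593.6, 755.0 and 477.7 CPM at 24 months, a 4.82-fold rise (adjusted p = 0.00074). The metallothionein gene Mt2A was at 2.32, 2.18 and 1.61 CPM in young retina and 15.7, 20.8 and 11.6 CPM in the aged retina (2.98 ± 0.25), and Mt1 was at 0.604 to 2.17 and 3.79 to 7.56 CPM (2.09 ± 0.44). Tfrc, the transferrin receptor, fell by 0.48 ± 0.12. Of 44 antioxidant genes, 15 rose and 0 fell (34.1%, median 0.27). Nqo1, a quinone reductase, was at 2.68 to 3.17 CPM at 4 months and 7.86 to 11.6 CPM at 24 months (1.69 ± 0.19), Mgst1 rose by 1.02 ± 0.19, and Hmox1, heme oxygenase 1, by 1.86 ± 0.43.

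These counts were sensitive to single libraries. The metal list had 4 rises without young library 1, 2 or 3 or aged library 2 and 0 falls without young library 1 or 2, and the antioxidant list 9, 9, 7 and 8 without the same libraries. Mt1 lost its call without young library 2 or aged library 1 or 2 (adjusted p up to 0.071), Hmox1 without young library 1 or 3 (up to 0.084) and Tfrc without any young library or aged library 1 (up to 0.091). Mt1 and Mt2A are neighbouring, similar genes on chromosome 19, and how reads were divided between them cannot be checked here. Their promoters are shown with TGCACNC matches on either strand in capitals, 3 in Mt1 (chr19:10832976-10833225, minus strand) and 2 in Mt2A (chr19:10838709-10838958, minus strand), from GRCr8.
Mt1: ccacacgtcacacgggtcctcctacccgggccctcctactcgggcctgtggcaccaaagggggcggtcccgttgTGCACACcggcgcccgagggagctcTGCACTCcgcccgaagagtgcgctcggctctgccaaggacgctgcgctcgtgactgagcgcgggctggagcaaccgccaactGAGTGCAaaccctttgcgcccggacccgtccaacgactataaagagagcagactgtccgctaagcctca
Mt2A: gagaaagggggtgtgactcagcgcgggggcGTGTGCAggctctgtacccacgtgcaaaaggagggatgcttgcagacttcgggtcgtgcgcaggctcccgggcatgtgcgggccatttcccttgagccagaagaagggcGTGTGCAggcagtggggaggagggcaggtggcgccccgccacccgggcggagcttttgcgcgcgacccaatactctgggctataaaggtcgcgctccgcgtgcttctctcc

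Of 76 cytosolic ribosomal protein genes tested, 25 rose and 0 fell (32.9%, median 0.28), and 72 had a change above 0. The number called was 10, 7 and 6 without young libraries 1, 2 and 3 and 43, 14 and 8 without aged libraries 1, 2 and 3. Rpl10 was at 142.3 to 145.6 CPM in young retina and 177.6 to 215.9 CPM in the aged retina (0.45 ± 0.07). Of 73 mitochondrial ribosomal genes 2 rose (2.74%) and of 35 proteasome genes 1 rose (2.86%), both below the share of all genes. The first was 0 without young library 2 or 3, and the second without any 1 young library or aged library 2 or 3. Among heat shock genes 3 of 30 rose and 3 fell, near the shares of all genes. Hspb1, a small heat shock protein of reactive glia, was at 1.70, 0.977 and 0.671 CPM at 4 months and 4.91, 8.39 and 5.03 CPM at 24 months (2.47 ± 0.35), whereas Hspa1a, the inducible chaperone, fell from 151.3 to 169.4 CPM to 86.2 to 103.2 CPM (-0.76 ± 0.08). The number of heat shock genes that rose was 5 without young library 3 or aged library 1. Optn, an autophagy receptor, was at 681.8, 685.5 and 753.5 CPM in young retina and 382.8, 314.0 and 404.0 CPM in the aged retina (-0.95 ± 0.09), the only one of 23 autophagy genes called. Cebpb rose by 1.74 ± 0.29, while the stress factor genes Ddit3 and Atf3 had log2 changes of 0.32 and 1.08 (adjusted p = 0.097 and 0.27).

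Activity-dependent genes had no common direction beyond Egr1. Of 36 immediate early genes tested, 7 rose (19.4%, against 7.29% of all genes) and 6 fell (16.7%, against 7.26%). Dusp1, a phosphatase that ends kinase signalling, was at 36.6, 33.8 and 36.3 CPM at 4 months and 15.9, 15.95 and 17.2 CPM at 24 months (-1.12 ± 0.08, adjusted p = 6.6e-05), with no sign of the uneven young levels of Egr1. Cyr61, a matrix-linked growth regulator, rose by 2.60 ± 0.42. Fos was at 24.4 to 38.0 and 5.93 to 22.1 CPM (-1.07 ± 0.51, adjusted p = 0.26). Without young library 1 the number higher was 2, and it was 3 when young library 2 or 3 or aged library 2 was omitted. Of 22 clock genes, 5 fell (22.7%) and 2 rose (9.09%, near the share of all genes), with Cry2 (-0.46 ± 0.09) and Cry1 (-0.44 ± 0.09) among the falls. Per2 had a log2 change of 0.03 ± 0.13 (adjusted p = 0.90), and 3 clock genes fell without young library 1. The number of clock genes that rose was 0 without young library 2 or aged library 1, 1 without young library 1 or 3 or aged library 3, and 5 without aged library 2. The time of day at which the rats were killed is not given in the labels. Among 19 glucocorticoid-responsive genes, 5 rose (26.3%) and 4 fell (21.1%). Zbtb16 (1.46 ± 0.19) and Fkbp5 (0.74 ± 0.09) rose and Klf9 fell (-0.59 ± 0.06), and the counts were 3 rises without young library 2 or aged library 2 and 2 falls without young library 1 or 2.

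Of 21 endothelial genes 4 rose and 0 fell (median 0.64), and this number was 1, 2 and 2 without young library 1, young library 2 and aged library 3. Plvap, the protein of endothelial pores that is scarce behind a closed blood-retina barrier, was at 3.02, 1.88 and 2.62 CPM in young retina and 7.40, 8.64 and 7.38 CPM in the aged retina (1.64 ± 0.20, adjusted p = 0.00080). The endothelial cadherin gene Cdh5 was at 3.68 to 3.94 and 3.86 to 9.28 CPM (adjusted p = 0.22), and Pecam1 and Cldn5 were not analysed here. Of 35 collagen genes 2 rose and 2 fell (5.71% each, below the shares of all genes). Col15a1 rose by 1.99 ± 0.36 and Col27a1, a cartilage-type collagen, by 0.66 ± 0.10, and the summed collagens were at 2468, 3360 and 1604 CPM in young libraries 1, 2 and 3, with the order of the lens genes. The number of collagen genes that fell was 1, 0 and 6 without young library 1, 2 and 3 and 4, 0 and 0 without aged library 1, 2 and 3, and 4 rose without aged library 2. Mmp3, stromelysin 1, had 0 reads in each young library and 33, 13 and 37 in the aged libraries, at least 26.4-fold higher when the young group is set at 3 counts over its 3 libraries. Mmp19 rose by 2.52 ± 0.44, while 5 of 38 genes of metalloproteinases and their inhibitors rose and 5 fell. The number higher was 2 when omitting young library 1 and 3 when omitting young library 2 or 3 or aged library 1 or 3, and the number that fell was 3 without young library 1 or 2 or aged library 2. Of 27 junction genes, 6 fell and 2 rose. Crb2, of the polarity complex at the outer limiting membrane, was at 49.0 to 53.8 CPM at 4 months and 32.1 to 37.7 CPM at 24 months (-0.61 ± 0.08), and Cldn9 rose by 1.45 ± 0.22. The junction count was 1, 1, 2 and 3 without young libraries 1, 2 and 3 and aged library 3.

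Of 22 cell cycle genes 4 rose and 1 fell (18.2% and 4.55%), and the number that rose was 2, 1, 2 and 2 without young library 2, young library 3, aged library 2 and aged library 3. Ccnd2, a cyclin of the G1 phase, was at 15.9, 16.5 and 15.1 CPM in young retina and 55.0, 67.8 and 57.2 CPM in the aged retina, a 3.79-fold rise (adjusted p = 1.2e-05). Mki67, a marker of dividing cells, was at 4.90 to 8.80 and 5.78 to 7.87 CPM (adjusted p = 0.95). Of 17 genes linked to senescence 1 rose and 3 fell (17.6%), a fall count of 2 without young library 1 or 2. Gadd45a, a p53 target, was at 35.6 to 37.1 CPM at 4 months and 20 to 23.9 CPM at 24 months (-0.71 ± 0.09), and Cdkn1a, which encodes p21, had a log2 change of -0.65 ± 0.16, a call lost without any 1 young library (adjusted p up to 0.090). Cdkn2a and Cdkn2b were below the level needed for a test. Of 29 cell death genes 6 rose and 2 fell (20.7% and 6.90%). Casp4, an inflammatory caspase, rose by 2.05 and the death receptor gene Fas by 1.92, while Xiap, an inhibitor of caspases, fell from 281.0 to 306.6 CPM to 187.8 to 193.3 CPM (-0.62 ± 0.06). The count of cell death genes that rose was 3 without young library 2. The Notch ligand gene Jag1 fell by 1.02 ± 0.09 and was the only one of 19 Notch genes called by edgeR, while DESeq2 also called 1 Notch gene higher.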

How the data were processed

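Poly-A RNA of neural retina was sequenced by the authors from 3 young and 3 aged untreated rats' libraries. The deposited values used for the tests are RSEM expected counts per Ensembl gene, of which 11.51% were not whole, and they were rounded to whole numbers. The authors' processing notes name Bowtie2 2.1.0, RSEM 1.2.15, edgeR and the Rnor_6.0 build. A deposited signal table, scaled by the authors to TMM-corrected library totals, was used only to attach names. Symbols came from the authors' comparison tables for 16326 of 32285 identifiers and by matching values for 877 more, and 15082 stayed unnamed. Where both routes gave a name (12746 genes), 92.82% had the same one. The fold changes and p-values in the authors' comparison tables were not used, nor were the pigment epithelium values. All columns were assigned to a sample (0 left over).

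Genes were filtered with filterByExpr, scaled by TMM and tested with the robust quasi-likelihood test of edgeR 4.0.16 in R 4.3.3 (aged against young, no covariate, limma 3.58.1), with Benjamini-Hochberg adjustment over 14588 genes and a threshold of 0.05. SE is the absolute log2 change divided by the square root of the F statistic of this test, and so restates that test. On simulated counts for this comparison (14588 genes), 50.7% of 67 genes changed 1.5-fold, 83.6% of 67 changed 2-fold and 90.9% of 66 changed 4-fold were recovered. The changed genes were drawn only from genes above a minimum young count. The rates thus do not cover genes as scarce in young retina as Socs3, Bcl3 and Cxcl10. Intervals cover counting and library spread only. Lists are described by counts and medians, and a gene can stand in several lists. Gene lists and the naming rule were chosen with earlier results of these data known, and motifs after the values had been seen. The rule takes per list up to 3 of the largest rises and 3 of the largest falls among called genes plus defining members, and overall the 15 largest rises and falls with a symbol, a mean of at least 1 log2 CPM and groups that do not overlap, leaving out interferon, complement, rod, lens and MHC genes. A few further list members with well-known roles are named beside them. Alternatives were DESeq2 1.42.0, other scaling and filters, a replicate block, a fit with the treated retina libraries, a rule of fold and unadjusted P and leaving out libraries. RefSeq promoters (GRCr8) were matched by symbol, and no coordinates of the authors' build are given. Some genes selected by the rule are not reported here.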

Additional observations from a re-analysis of the deposited data

How the results depend on the processing

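The 302 called genes among the 395 named ones kept their direction, where they were tested, under the alternatives that kept at least 2 libraries a group. With at least 10 counts in every library, 334 of the 395 kept their side of the threshold, 1 lost it and the rest were not tested. DESeq2 kept the side of the threshold for 359 of 395 (25 lost, 11 gained), and the replicate block for 347 (35 lost, 13 gained). RLE scaling and unrounded counts kept it for all 395, the fit with all 3 retina groups for 362, no filter for 384 and the non-robust fit for 377. With 1 library left out, the call was lost for 75, 90 and 71 genes without young library 1, 2 and 3 and for 33, 63 and 58 without aged library 1, 2 and 3. Over these leave-outs, the genes called ranged from 668 to 1107 higher and from 577 to 1205 lower. By list the ranges were 13 to 16 for reactive glia, 6 to 9 for homeostatic and 7 to 13 for disease-associated microglia, 16 to 19 for cytokines, 7 to 8 for pattern recognition, 8 to 11 for phagocytosis, 15 to 20 for MHC class I, 7 to 17 for antioxidant, 4 to 8 for metal, 6 to 11 for lysosome and 6 to 43 for ribosomal genes that rose. For genes that fell they were 3 to 5 for cones, 7 to 10 for ribbon synapses, 8 to 8 for photoreceptor transcription factors, 6 to 11 for cilium, 6 to 11 for glycolysis, 5 to 8 for fatty acid and 4 to 6 for immediate early genes.

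Without young libraries 1 and 2 together, 1 young library remains and is assumed to vary like the aged ones. Then 432 genes were higher and 237 lower, and the calls were 7 for reactive glia, 2 for homeostatic and 5 for disease-associated microglia, 10 for cytokines, 3 for pattern recognition, 5 for phagocytosis, 6 for MHC class I, 7 for ribosomal, 6 for antioxidant, 4 for metal and 2 for lysosome genes that rose. They were 1 for cones, 4 for ribbon synapses, 4 for photoreceptor transcription factors, 3 for cilium, 2 for glycolysis, 4 for fatty acid and 2 for immediate early genes that fell. Compared with the main fit, more rises were called there in the pigment epithelium, collagen, junction and iris lists, although fewer samples remain in that fit by construction. In it, Optc went from -0.02 to 1.41 and Ptgds from -0.01 to 0.80 on the log2 scale. A rule of a fold over 1.5 and an unadjusted P under 0.05 gave 348 lower genes, since most falls were smaller than that fold. In the fit with all 3 retina groups 16 ribosomal genes rose, and with at least 10 counts in every library 5 metal genes rose, where fewer genes were tested. The cause was not tested for the ribosomal count. A replicate block gave 909 higher and 789 lower genes. The deviations of same-numbered libraries had correlations of -0.0751, -0.0763 and 0.105. The highest of all was 0.159, for young library 2 with aged library 1, and aged library 3 alone correlated best with its own number. Such weak values from 3 libraries a group cannot decide whether the numbers pair the samples.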

Other observations

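Of 39 genes of the actin cytoskeleton, 13 rose and 0 fell, and the number higher was 7 or 6 when young library 2 or 3 was omitted. Anxa3, a calcium-dependent membrane-binding protein, was at 11.1, 8.57 and 10.2 CPM in young and 38.3, 47.2 and 29.7 CPM in aged retina (log2 change 1.95 ± 0.18, adjusted p = 0.00074 by edgeR), and Rac2 and Plek, a GTPase and an adaptor of blood-derived cells, rose by 2.16 and 2.15. Itgb2, the shared beta subunit of leukocyte integrins, rose by 1.94 ± 0.29, and 4 of 17 integrin genes rose, or 2 without young library 2, young library 3 or aged library 2. Of 26 NF-kB genes 8 rose and 1 fell, and the largest rise, 3.76, was that of Bcl3, counted with the reactive glia as well. Icam1, an adhesion molecule for leukocytes, rose from 2.41 to 3.32 CPM to 8.41 to 11.4 CPM, and the number that rose was 5 without young library 2 or 3 or aged library 2 or 3.

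Of 42 neuropeptide and trophic factor genes 10 rose and 2 fell, with 6 rises and 0 falls without young library 3 or aged library 3, and 1 fall without young library 1 or 2 or aged library 2. Pdyn, the opioid precursor prodynorphin, was at 10.7, 8.42 and 10.9 CPM in young and 18.7, 21.0 and 19.9 CPM in aged retina (0.99 ± 0.12), and Hgf, a growth factor, rose by 0.78 ± 0.14. Of 24 MHC class I presentation genes 21 rose. Psme1, a proteasome activator subunit, was at 22.7 to 26.1 and 42.6 to 50.2 CPM (0.87 ± 0.09). The class I genes themselves are near-identical copies whose reads may be divided among them. Of 25 genes of water and ion transport 6 rose and 6 fell, among them Ano2, a calcium-activated chloride channel of photoreceptor terminals, which fell from 210.7 to 224.2 CPM to 134.7 to 144.3 CPM (-0.63 ± 0.06), and the number that rose was 3 without young library 1 or 2. Of 39 genes of laminins and other basement membrane and matricellular proteins 4 rose (10.3%) and 1 fell (2.56%), shares near or below those of all genes, the fall being Tnr, a tenascin of neural matrix (-0.51 ± 0.07). Those counts were 2 rises without young library 1 or 2 or aged library 1, and 5 falls without young library 3 and 3 without aged library 1.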
